A study of Mus musculus with 32 samples.

Results

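The type 2 helper T cell (Th2) genes described here are the cytokines Il4, Il13 and Il5, the transcription factor Gata3, the receptor chain Il4ra, its signal transducer Stat6, the chemokine receptor Ccr4 and Il1rl1. They were matched by gene symbol to 2 array platforms. Probe sets named 7 of the 8 genes on both platforms, among 22180 genes measured at 48 h and 17097 at 72 h. Il1rl1 was not analysed here.

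All 32 arrays held RNA of T cells of the same kind of mouse, Balb/c DO11.10 TCR transgenic animals, whose T cells carry a receptor for a peptide of ovalbumin (OVA). The T cells came from axial and cervical lymph nodes and were cultured on peritoneal macrophages taken 3 days after thioglycollate, an irritant that draws macrophages into the peritoneum. Viable CD4+ singlets were then sorted. At 48 h, 3 arrays each held cells given OVA with no stated change of the medium (called full medium here), OVA on macrophages pretreated with IL-4 and IL-10 (each at 10 ng/mL for 12 to 16 hours and washed away before the culture), or OVA in medium with 1% of the normal arginine, leucine or lysine. Cells in the low arginine, low leucine and low lysine media without OVA filled 2, 3 and 3 arrays. At 72 h, 3 arrays each held untreated cells, cells given OVA, and cells given OVA on the pretreated macrophages. No group at 48 h had full medium without antigen. All groups therefore share the transgenic receptor and the macrophages, and only 1 receptor specificity was tested. The labels do not state if a replicate was its own culture or animal, and p-values measure only the spread between these samples. The number of arrays limits the precision.

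Th2 cells are helper T cells that release IL-4, IL-5 and IL-13 and are known for their part in allergy and in defence against worms. IL-4 binds a receptor that contains the IL-4 receptor alpha chain, STAT6 is phosphorylated there and moves to the nucleus, and GATA3 opens the cytokine locus. In macrophages the same receptor and STAT6 drive alternative activation. Il4, Il13 and Il5 lie together on chromosome 11, in the RefSeq order Kif3a, Il4, Il13, Rad50, Il5, Irf1.

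The sequences upstream of the 3 cytokine genes are shown because Il4 and Il13 carry the called differences between media, whereas Il5, from the same locus, had none with all arrays. Il4 and Il5 both had low signal at 48 h, and the Il4 calls between media were lost without certain single arrays. Each is the 250 bases before a RefSeq transcription start in build GRCm38.p6, given 5′ to 3′ on the gene's own strand. The Il4 sequence is chr11:53618666-53618915 on the minus strand, the second of 2 starts listed. Il13 is chr11:53634703-53634952 on the minus strand, and Il5 is chr11:53720544-53720793 on the plus strand. Capitals mark words found on either strand: TTC and GAA with any 4 bases between them, the spacing preferred by STAT6 (the STAT word), GATA with a T or A before it and an A or G after it (the GATA word, bound by GATA factors), and GGAAA, the core of NFAT sites. In the Il4 sequence the STAT word overlaps a GGAAA word.
Il4: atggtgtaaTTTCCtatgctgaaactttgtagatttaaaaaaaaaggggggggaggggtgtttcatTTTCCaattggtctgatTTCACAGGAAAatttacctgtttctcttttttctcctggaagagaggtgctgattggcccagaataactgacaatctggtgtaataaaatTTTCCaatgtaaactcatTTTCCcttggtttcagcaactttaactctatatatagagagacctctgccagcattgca
Il13: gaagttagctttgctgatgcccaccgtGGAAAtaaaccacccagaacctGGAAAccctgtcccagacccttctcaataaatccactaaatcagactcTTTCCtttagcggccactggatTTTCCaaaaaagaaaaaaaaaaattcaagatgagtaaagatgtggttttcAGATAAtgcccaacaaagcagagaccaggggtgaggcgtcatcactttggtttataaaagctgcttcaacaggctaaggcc
Il5: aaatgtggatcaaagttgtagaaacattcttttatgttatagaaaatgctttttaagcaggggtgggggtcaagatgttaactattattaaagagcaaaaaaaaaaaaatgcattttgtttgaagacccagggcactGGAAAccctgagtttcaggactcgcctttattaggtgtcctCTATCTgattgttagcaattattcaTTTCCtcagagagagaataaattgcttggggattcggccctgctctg
The Il4 sequence held 1 STAT word, 5 GGAAA words and 0 GATA words. The other Il4 start had 1 GATA word and no STAT or GGAAA word. The Il13 sequence held 4 GGAAA words and 1 GATA word, and that of Il5 held 2 and 1. Over 32851 mouse promoters of the same length, 5.85% held the STAT word, 26.5% held a GATA word and 55.6% held GGAAA. A match describes letters and does not show a bound site.

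As a rough background range, the 1105 olfactory receptor genes at 48 h had a median log2 level of 3.99 and a 95th percentile of 6.18, and the 41 at 72 h had 3.28 and 3.65. The labelled cell type was checked first, and the 12 CD4 T cell identity genes measured at 48 h and the 13 at 72 h all lay above that percentile in at least 1 group. This does not show that other cells were absent. In untreated cells at 72 h the identity genes had a mean of 9.30, under the 9.78 of mesothelial and stromal genes. With antigen alone at 72 h these means were 10.30 and 4.38. Mast cells and basophils also make IL-4 and IL-13, and all 13 of their marker genes lay at or below it in every group at 48 h. At 72 h only 5 of 12 did, and the mean of the list was 3.75 to 4.69 in untreated cells, 3.40 to 3.59 with antigen and 3.72 to 4.39 with antigen on pretreated macrophages. The list's part in the Il4 and Il13 values was not tested. The median probe set of an array had a log2 level of 5.44 to 5.75 at 48 h, against 3.87 to 4.04 at 72 h. In bulk RNA, fewer cells of a type and less RNA per cell cannot be told apart.

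Gata3 and Ccr4 were called higher with antigen in each of 4 comparisons, Ccr4 at 72 h only just (adjusted p = 0.0495). At 72 h, limma called 6 of the 7 measured members (adjusted p below 0.05), 5 higher and 1 lower, where 38.2% of all genes were called. At 48 h antigen raised 2 of 7 members in low arginine (29.4% of all genes called), 4 of 7 in low leucine (41.3%) and 5 of 7 in low lysine (31.0%). The share in low arginine and that over all genes were alike. Il4 and Il13 were called higher in all but low arginine. No member was called lower at 48 h with the values as deposited, whereas quantile normalization called Il4ra and Stat6 lower in low leucine. The 3 low-media comparisons use separate arrays. Marker genes of the cells in the culture moved with antigen as well. CD4 T cell identity genes rose, 10 of 13 at 72 h and 7, 5 and 5 of 12 in low arginine, leucine and lysine, with 1 lower in each of the last pair. Regulatory T cell genes rose too, 7 of 8 at 72 h and 8 of 10 in each low medium at 48 h. Macrophage genes fell, 15 of 23 at 72 h and 10, 14 and 13 of 23 at 48 h, as did stromal genes, 18 of 18 at 72 h and 7, 11 and 3 of 18 at 48 h. The part of these shifts in the rises of Gata3, Il4, Il13 and Ccr4 was not tested.

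Media with little of an amino acid moved few members. Against full medium with antigen, 1 of 7 was called in low arginine (Il13, lower; 4.67% of all genes called) and 1 of 7 in low leucine (Il4, higher; 2.72%). In low lysine 0 of 7 were called by limma (8.73%), with 3 at an unadjusted p below 0.05. Low arginine against low leucine called 2 of 7, Il4 and Il13, both lower in low arginine, where 0.712% of all genes were called. Low arginine against low lysine called 0 of 7 by limma (3.22%), with 2 at an unadjusted p below 0.05, and low leucine against low lysine 0 of 7 (1.88%), with 3. Pretreated macrophages called 0 of 7 members by limma at 48 h (8.64% of all genes called), with 2 at an unadjusted p below 0.05, and 0 of 7 at 72 h (9.69%), with 0 at an unadjusted p below 0.05. The 3 comparisons with full medium and the pretreatment comparison share the full-medium arrays. The full-medium arrays carry other runs of submitter numbers than the low-media arrays, so run and medium cannot be told apart. These runs were grouped here into submitter sets, which the titles do not name as batches.

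**Figure D1:**
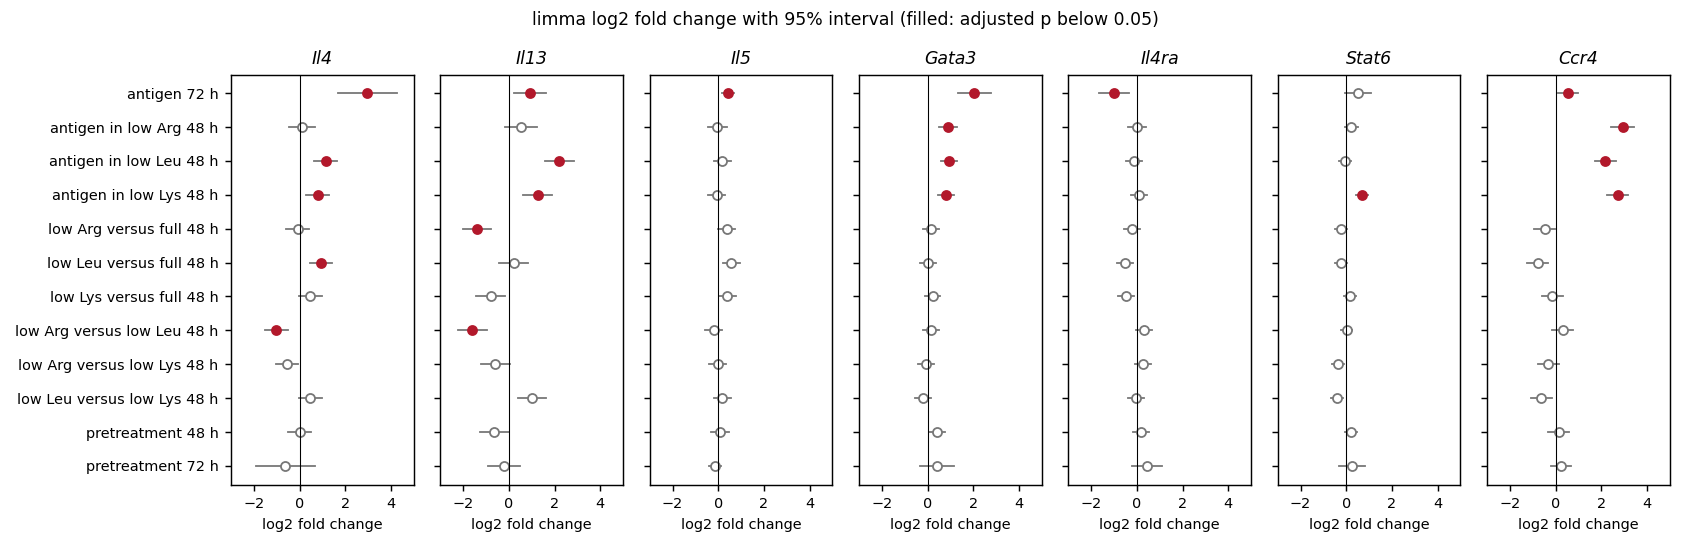
log2 fold change (horizontal axis) of each member in the 12 comparisons (rows), with the 95% interval from limma. Filled points have an adjusted p below 0.05. Il4 and Il13 lie below 0 in low arginine against low leucine, and Ccr4 and Gata3 are filled in all 4 antigen comparisons.

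Il4 encodes the cytokine that both drives Th2 differentiation and is made by Th2 cells. With antigen at 48 h its log2 levels were 6.55, 5.67 and 5.56 in low leucine and 5.11, 5.57 and 5.70 in low lysine. They were 4.92, 4.82 and 4.97 in low arginine and lay between 4.79 and 5.16 in full medium and between 4.78 and 5.34 in the pretreated group. Every low-leucine array lay above every array of low arginine and of full medium, while low lysine overlapped full medium. Without antigen the levels were 4.69 and 4.89 in low arginine, 4.92, 4.95 and 4.49 in low leucine, and 4.43, 5.17 and 4.39 in low lysine. All group means at 48 h lay under the olfactory 95th percentile, the highest of them, low leucine with antigen, at percentile 92.3, so the whole pattern is one of low signal.

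In low leucine, Il4 was 1.14 ± 0.24 (SE) higher with antigen on the log2 scale (adjusted p = 0.000533), and in low lysine 0.79 ± 0.24 higher (adjusted p = 0.0141). The low lysine call was lost without OVA replicate 3 of that medium or without replicate 1 or 3 of its antigen-free group (adjusted p up to 0.0765). In low arginine the difference with antigen was 0.11 ± 0.27 (adjusted p = 0.785). Against full medium, Il4 was 0.94 ± 0.24 higher in low leucine (adjusted p = 0.0310). That call was lost when low-leucine replicate 1 or any one of the 3 full-medium arrays was left out, with adjusted p up to 0.235. Between media, low arginine fell below low leucine by 1.02 ± 0.24 (adjusted p = 0.0450). It was lower in 3 of 3 submitter sets, by 0.58 to 1.63, yet this call was lost without any one of the low-arginine arrays, without low-leucine replicate 1 or 2 (adjusted p up to 0.289), and with the submitter set as a block (0.0675).

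At 72 h Il4 was higher with antigen. The levels were 3.56, 3.20 and 3.01 without antigen, 5.98, 7.26 and 5.42 with antigen and 5.23, 6.99 and 4.54 with antigen on pretreated macrophages. No array with antigen overlapped those without. The difference with antigen was 2.96 ± 0.58 (adjusted p = 0.00179), and this call held in all 14 alternative settings. The untreated mean of 3.26 lay in the background range, and against the olfactory 95th percentile Il4 was at least 5.94-fold higher with antigen. Replicate 2 was the highest array of both antigen groups and replicate 3 the lowest. The pretreatment difference of -0.63 ± 0.58 had a 95% interval from -1.92 to 0.65, wider than that of any other member at 72 h.

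Il13 encodes a cytokine that acts on epithelium and macrophages through a receptor that also contains the IL-4 receptor alpha chain. Its log2 levels with antigen at 48 h were 8.88, 8.36 and 8.26 in full medium and 8.91, 8.21 and 9.03 in low leucine. In low arginine they were 6.92, 6.96 and 7.44, below every array of full medium and of low leucine. Low lysine spread from 7.28 to 8.43 (7.40, 7.28 and 8.43), and the pretreated group from 7.35 to 8.67 (7.35, 7.55 and 8.67). Both of these groups overlapped full medium through replicate 3 alone. Without antigen the levels ran from 6.26 to 6.82 in the 8 arrays, under every array with antigen.

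Il13 was 1.39 ± 0.30 lower in low arginine than in full medium (2.63-fold, adjusted p = 0.00746), a call that was lost without full-medium replicate 1 (adjusted p = 0.0558). Low arginine lay below low leucine by 1.61 ± 0.30 (3.05-fold, adjusted p = 0.0103) and was lower in 3 of 3 submitter sets, by 1.25 to 1.98. This call was lost without low-arginine replicate 1 or 2 or low-leucine replicate 1 or 3, where the adjusted p rose to 0.0767 at most. Antigen raised Il13 by 2.21 ± 0.30 in low leucine (adjusted p = 3.84e-06) and by 1.26 ± 0.30 in low lysine (adjusted p = 0.00270). In low arginine the antigen difference was 0.53 ± 0.34 (adjusted p = 0.246), with a 95% interval from -0.17 to 1.24, although the groups did not overlap.

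A moderated F test in limma compared the antigen effects of the 3 low media with each other. It called 0 of 7 members (0.149% of all genes called), with 3 members, Il4, Il13 and Stat6, at an unadjusted p below 0.05. The adjusted p was 0.277 for Il13 and 0.466 for Il4. The antigen effect in low arginine minus that in low leucine was -1.67 ± 0.46 for Il13 and -1.03 ± 0.36 for Il4. A loss of antigen induction in low arginine relative to the other media is therefore not shown for either gene by this test.

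Cell division genes moved with Il13 in some groups and not in others. The mean log2 level of 19 G2/M and mitosis genes was 9.15 to 9.22 in full medium with antigen, 8.93 to 9.11 in low arginine and 8.49 to 8.85 in low leucine, and 0 of the 19 were called in either medium against full medium. The median difference of the division genes from full medium was -0.25 in low arginine and -0.56 in low leucine. In low lysine the 3 arrays had division means of 6.13, 7.27 and 8.39 and Il13 levels of 7.40, 7.28 and 8.43, and in the pretreated group 6.69, 6.85 and 8.19 beside 7.35, 7.55 and 8.67. In both groups the array with the highest division mean had the highest Il13, and also the highest Gata3 and Stat6 given further on. Within the antigen groups (15 arrays) the Pearson r with the division mean was 0.73 for Il13, 0.71 for Gata3 and 0.69 for Stat6. For the other members it lay between -0.34 (Il4ra) and 0.15 (Ccr4). On the 72 h platform (6 antigen arrays) this r was 0.35 for Il13, -0.67 for Gata3 and -0.58 for Stat6. The sign for Gata3 and Stat6 was thus the opposite of that at 48 h. Against full medium, 19 of 19 division genes fell in low lysine and 18 of 19 in the pretreated group, and the part of cell division in the Il13, Gata3 and Stat6 values was not tested. Without low-lysine replicate 3, Il13 was called lower in low lysine than in full medium (-1.16, adjusted p = 0.0118) and than in low leucine (by 1.38, adjusted p = 0.00812). Without pretreated replicate 3, it was called lower with the pretreatment (-1.05, adjusted p = 0.0216). With all arrays these differences were -0.80 ± 0.30 (adjusted p = 0.105), 1.01 ± 0.30 for low leucine minus low lysine (adjusted p = 0.0843) and -0.64 ± 0.30 (adjusted p = 0.238).

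**Figure D2:**
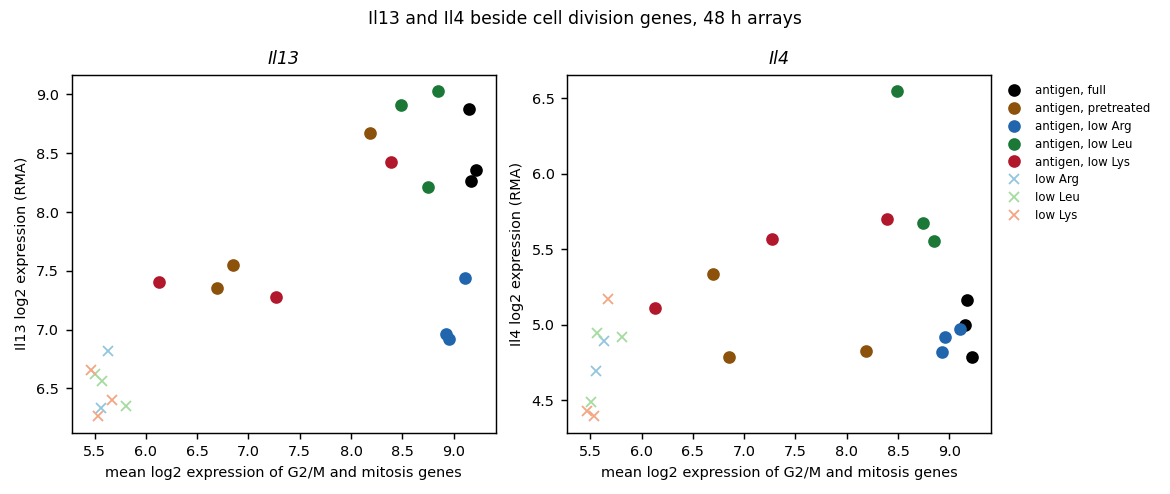
Log2 level of Il13 (left) and Il4 (right) against the mean log2 level of the G2/M and mitosis genes, 1 point per array at 48 h, coloured by group. The 3 low-arginine arrays with antigen have division means of 8.93 to 9.11 and Il13 levels of 6.92 to 7.44, and the low-lysine and pretreated arrays spread along both axes.

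At 72 h Il13 was 4.44, 4.29 and 4.56 without antigen, 5.20, 5.96 and 4.90 with antigen, and 5.01, 5.72 and 4.71 with pretreatment. Both antigen groups lay above the group without antigen, and replicate 2 was again the highest and replicate 3 the lowest of each antigen group, as for Il4. The antigen difference was 0.92 ± 0.31 (adjusted p = 0.0366). It lost its call in 5 of 14 settings, without any one of the 3 untreated arrays or without antigen replicate 1 or 2 (adjusted p up to 0.132). The pretreatment difference was -0.21 ± 0.31, with a 95% interval from -0.89 to 0.48. In this comparison equal replicate numbers deviated together, and within the 3 pairs Il13 differed by -0.19, -0.24 and -0.19 and Il4 by -0.75, -0.27 and -0.88. Both genes were lower in 3 of 3 pairs, yet with the numbers as a replicate block in limma the adjusted p was 0.731 for Il13 and 0.389 for Il4. The third pair joins submitter sets 3 and 4, so only 2 sets held both groups.

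Il5 encodes the cytokine that supports eosinophils. Its levels at 48 h ran from 4.04 to 5.30 over all 23 arrays, every group mean lay under the olfactory 95th percentile, and no neighbouring groups in the order of means were free of overlap. None of the differences at 48 h passed the test with all arrays. The widest was low leucine minus full medium, 0.57 ± 0.18 (adjusted p = 0.113), in which full-medium replicate 3 was the lowest array at 4.04. These groups did not overlap, nor did low arginine and low leucine with antigen. Without full-medium replicate 2, limma called Il5 higher in low leucine than in full medium (0.77, adjusted p = 0.0317). At 72 h the levels were 2.99, 2.95 and 3.28 without antigen, 3.49, 3.65 and 3.39 with antigen, and 3.42, 3.44 and 3.20 with pretreatment. The rise with antigen of 0.44 ± 0.12 passed the test (adjusted p = 0.0110), although the mean with antigen, 3.51, stayed under the olfactory 95th percentile.

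Gata3 encodes the factor that commits T cells to the Th2 fate and is also needed for CD4 T cell development. At 48 h its log2 levels with antigen were 7.98, 7.97 and 7.95 in full medium, 8.12, 8.03 and 8.22 in low arginine, 8.14, 7.89 and 7.92 in low leucine and 8.09, 8.08 and 8.39 in low lysine. The pretreated group had 8.18, 8.33 and 8.61, all above full medium. Without antigen the levels lay between 6.69 and 7.52, below every array with antigen. Antigen raised Gata3 by 0.90 ± 0.19 in low arginine (adjusted p = 0.000663), 0.93 ± 0.17 in low leucine (9.34e-05) and 0.80 ± 0.17 in low lysine (0.000619), nearly the same rise in the 3 media. A second probe set of Gata3 gave 0.22 ± 0.21 (adjusted p = 0.441), 0.48 ± 0.19 (0.0417) and 0.43 ± 0.19 (0.0826), which loses 2 of the 3 calls. The pretreatment difference was 0.41 ± 0.17 (adjusted p = 0.149), and higher in 3 of 3 submitter sets.

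Gata3 also rose with antigen on the 72 h platform, whose values cannot be set beside those of 48 h. Untreated cells had 6.99, 6.72 and 5.58, cells with antigen 8.52, 8.18 and 8.73, and cells on pretreated macrophages 9.25, 8.55 and 8.88. The untreated arrays did not overlap the others, and replicate 3 stood more than 1 log2 unit under the other two. The difference was 2.05 ± 0.33 (4.13-fold, adjusted p = 0.000484), called in all 14 settings. Pretreatment added 0.42 ± 0.33 (adjusted p = 0.521).

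Il4ra encodes the alpha chain shared by the receptors for IL-4 and IL-13, made by T cells and by macrophages. At 48 h its log2 levels with antigen were 9.78, 9.67 and 9.81 in full medium, 9.53, 9.44 and 9.67 in low arginine, 9.31, 8.99 and 9.43 in low leucine and 9.40, 9.35 and 9.14 in low lysine. All low-leucine and low-lysine arrays lay below full medium. The differences of -0.51 ± 0.17 in low leucine (adjusted p = 0.132) and -0.46 ± 0.17 in low lysine (adjusted p = 0.0911) did not pass the test, though the first was called when only those groups were fitted (0.0101). The pretreated group had 9.75, 10.22 and 9.84, overlapping full medium. Antigen differences at 48 h were 0.00 ± 0.19, -0.12 ± 0.17 and 0.09 ± 0.17 in low arginine, leucine and lysine, none of them called. With quantile normalization the low leucine one was called lower (-0.45, adjusted p = 0.0261), and its sign turned with array centring (0.12).

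Il4ra was the only member lower with antigen at 72 h. Its levels were 8.26, 8.28 and 7.52 without antigen, 7.30, 7.04 and 6.74 with antigen and 8.08, 6.98 and 7.32 with pretreatment. The groups with and without antigen did not overlap, and the difference was -0.99 ± 0.30 (adjusted p = 0.0224). The call was lost in 4 of 14 settings, without untreated replicate 1 or 2 or antigen replicate 2 or 3 (adjusted p up to 0.0883). Markers of other cells moved in the same direction. All 18 mesothelial and stromal genes fell with antigen, from array means of 9.63 to 9.86 without antigen to 4.25 to 4.61 with it, and 15 of 23 macrophage genes fell, from 5.09 to 6.89 down to 3.84 to 3.88. In the untreated group replicate 1 had the lowest macrophage mean, 5.09, beside an Il4ra of 8.26. Replicate 3 of that group had the lowest stromal mean, 9.63, and the lowest Il4ra, 7.52. The pretreated arrays ranked alike in Il4ra (8.08, 6.98 and 7.32) and in the macrophage mean (4.28, 4.06 and 4.22). The highest stromal mean of that group, 6.16, was in the array with the highest Il4ra. Within the antigen groups (6 arrays) the Pearson r of Il4ra was 0.86 with either list and -0.94 with the mean of the G2/M and mitosis genes. The part of other cells and of cell division in the Il4ra difference was not tested.

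**Figure D3:**
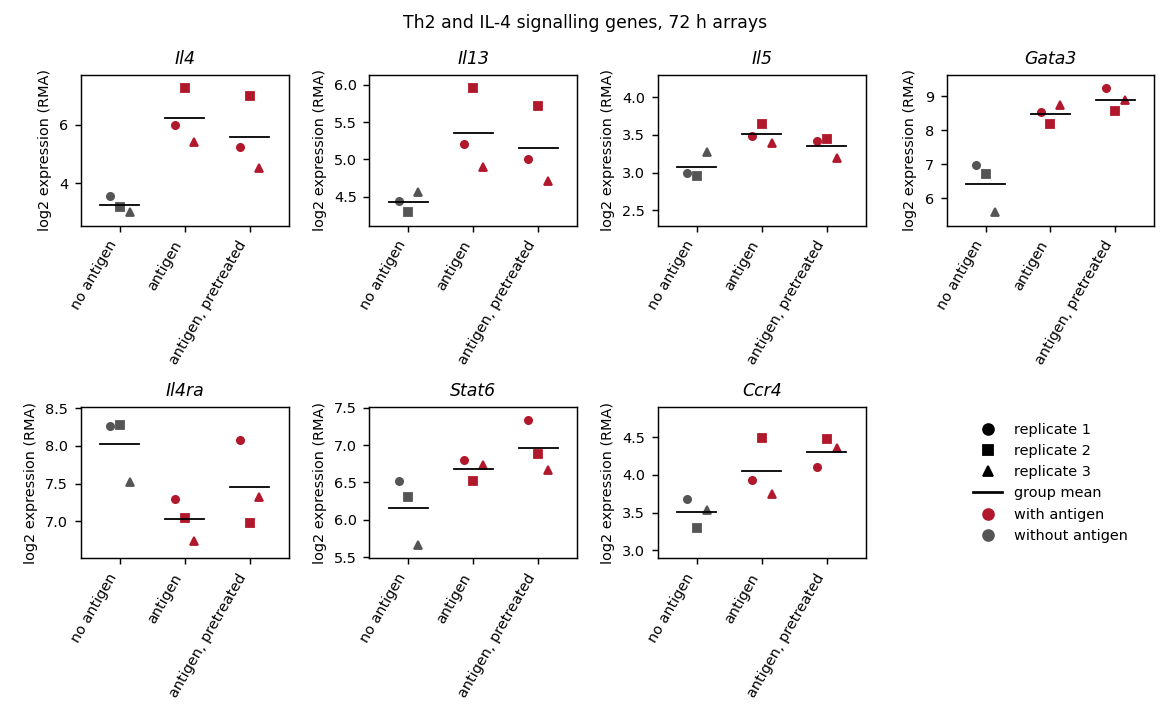
Log2 level of each member on the 9 arrays of 72 h, 1 symbol per array and a line at the group mean, in grey without and in red with antigen. Il4 and Gata3 show no overlap between the untreated group and both antigen groups, and Il4ra is lower with antigen.

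Stat6 encodes the transcription factor activated by the IL-4 receptor. With antigen at 48 h its log2 levels were 8.66, 8.71 and 8.75 in full medium, 8.32, 8.52 and 8.62 in low arginine, 8.48, 8.43 and 8.51 in low leucine and 8.69, 8.90 and 8.97 in low lysine. Without antigen they were 8.16 and 8.36, then 8.52, 8.51 and 8.55, and then 8.32, 7.91 and 8.27 in the same order of media. In low lysine every array with antigen lay above every array without, while in low leucine every array with antigen lay below those without, the nearest of them by less than the rounding. Antigen raised Stat6 in low lysine by 0.69 ± 0.13 (adjusted p = 0.000152), and by 0.41 under quantile normalization, still called. The low-lysine arrays with antigen ranked alike in Stat6 (8.69, 8.90 and 8.97) and in the mean of the division genes (6.13, 7.27 and 8.39). Of 11 B cell marker genes, 6 were higher in low lysine than in full medium with antigen, where 8.73% of all genes were called. Their array means with antigen were 5.86 to 6.84 in low lysine and 5.57 to 5.63 in full medium. With antigen against without in low lysine, 2 were higher and 1 lower. The part of B cells in the Stat6 values was not tested. The low leucine difference was -0.050 ± 0.13 (adjusted p = 0.764) and the low arginine difference 0.23 ± 0.14 (adjusted p = 0.224). The F test of the difference among media gave an adjusted p of 0.170, with low leucine minus low lysine at -0.74 ± 0.18. Scaling mattered here, since antigen moved the median of all genes by -0.12, -0.13 and -0.09 in low arginine, leucine and lysine as deposited and by 0.11, 0.11 and 0.10 after array centring. Under centring the low arginine difference was called (0.45, adjusted p = 0.0316) and the low leucine one turned to 0.19. Under quantile normalization the low arginine one turned to -0.08 and the low leucine one was called lower (-0.39, adjusted p = 0.0134).

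At 72 h Stat6 was 6.52, 6.30 and 5.66 without antigen, 6.80, 6.52 and 6.74 with antigen and 7.33, 6.88 and 6.67 with pretreatment. The antigen and untreated groups touched at 6.52. The difference of 0.53 ± 0.26 did not pass the test (adjusted p = 0.139), which makes Stat6 the only measured member not called for antigen at 72 h. Pretreatment differed from antigen alone by 0.20 ± 0.13 at 48 h (adjusted p = 0.411) and by 0.27 ± 0.26 at 72 h (adjusted p = 0.601).

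Ccr4 encodes a receptor for the chemokines CCL17 and CCL22 that Th2 cells, regulatory T cells and skin-homing T cells carry. At 48 h its log2 levels were 4.25 and 4.40 in low arginine, 4.60, 4.98 and 4.71 in low leucine and 5.25, 4.59 and 4.71 in low lysine without antigen. With antigen they were 6.96, 7.27 and 7.53, then 7.32, 6.53 and 6.96, and then 7.33, 7.98 and 7.40 in the same media. No array with antigen overlapped one without. The rise was 2.93 ± 0.25 in low arginine (adjusted p = 5.47e-09), 2.18 ± 0.22 in low leucine (5.07e-08) and 2.72 ± 0.22 in low lysine (2.06e-09), and these calls held in every setting run. All 3 antigen-free means, 4.32, 4.76 and 4.85, lay in the background range. Against the olfactory 95th percentile, Ccr4 was at least 2.11-fold, 1.69-fold and 2.63-fold higher with antigen in the same media. Full medium with antigen had 7.97, 7.59 and 7.59 and the pretreated group 7.53, 8.03 and 8.03, which overlap. The difference of -0.78 ± 0.22 between low leucine and full medium missed the threshold (adjusted p = 0.0617), but passed it when only those groups were fitted (0.0193), when dim genes were left out (0.0322) and without low-leucine replicate 1 (0.0327).

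At 72 h Ccr4 was 3.68, 3.30 and 3.54 without antigen, 3.93, 4.49 and 3.75 with antigen and 4.10, 4.47 and 4.36 with pretreatment. The untreated arrays lay under all others, with a mean of 3.51 in the background range. The rise of 0.55 ± 0.20 barely passed the test (adjusted p = 0.0495) and lost its call in 9 of 14 settings, among them each fit without an untreated array or without antigen replicate 1 or 2 (adjusted p up to 0.165), and a replicate block (0.0647). Without antigen replicate 2 the difference was 0.33.

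**Figure D4:**
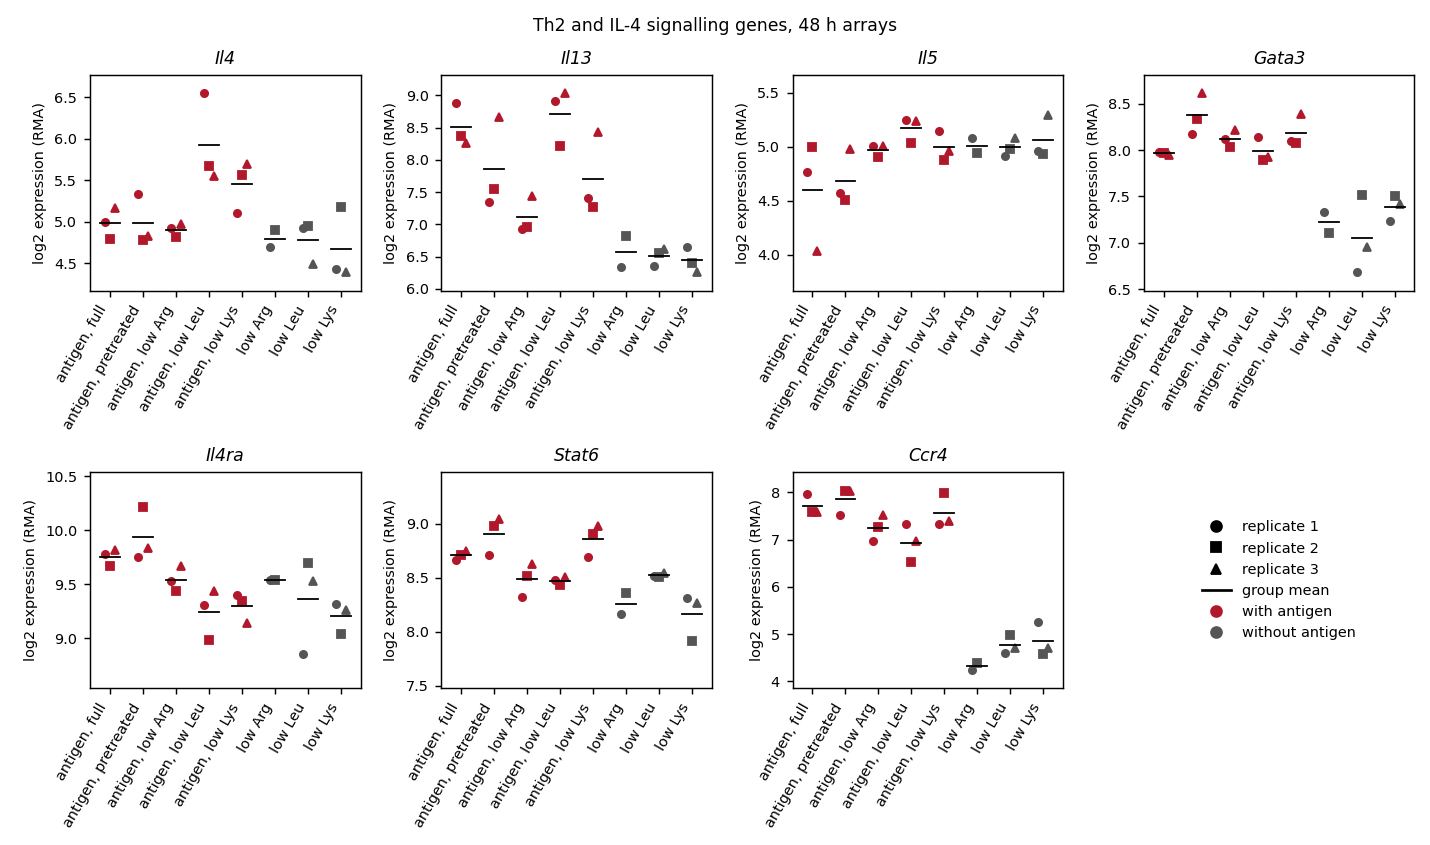
Log2 level of each member on the 23 arrays of 48 h, 1 symbol per array and a line at the group mean, in red with and in grey without antigen. Ccr4 and Gata3 separate all antigen arrays from those without antigen, and Il13 is lowest among the antigen groups in low arginine. The Il5 groups next to each other in the order of means overlap.

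Macrophage genes that IL-4 is known to induce served as a check on the pretreatment. Chil3, a chitinase-like protein of alternatively activated macrophages, was 4.94 ± 0.25 higher in the sorted cells of the pretreated group at 48 h (adjusted p = 1.31e-11), and 0.75 ± 0.15 higher at 72 h (adjusted p = 0.0124). Arg1, which breaks down arginine, was 1.84 ± 0.24 higher at 48 h (adjusted p = 3.45e-05), and differed by 2.15 ± 0.71 at 72 h (adjusted p = 0.0851). Macrophage markers moved in the same direction, with 7 of 23 higher in the pretreated group at 48 h and array means of 6.60 to 7.02 against 6.30 to 6.38 in full medium. At 72 h 1 of 23 was higher, with array means of 4.06 to 4.28 against 3.84 to 3.88 with antigen alone. Of 17 listed genes of alternatively activated macrophages, Chil3 and Arg1 among them, 5 were called higher and 0 lower at 48 h. At 72 h 3 were higher and 1 lower. Over all genes 8.64% and 9.69% were called in either direction. For the 7 members the pretreatment differences had a median of 0.14 at 48 h and 0.25 at 72 h, beside 0.01 and 0.02 over all genes. Their 95% intervals at 48 h reached from -1.27 for Il13 to 0.75 for Gata3.

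Other genes of the pathway came from a list of 43 genes for IL-4 signalling and the Th2 programme, of which 38 were measured at 48 h and 39 at 72 h. With pretreatment 5 were higher and 1 lower at both times (medians of 0.13 and 0.24), where 8.64% and 9.69% of all genes were called in either direction. Ccr8, a chemokine receptor of Th2 and regulatory T cells, rose by 1.38 ± 0.22 at 48 h and 1.87 ± 0.35 at 72 h, and Tbx21, which encodes the Th1 factor T-bet, fell by 1.14 ± 0.28 and 1.52 ± 0.26. At 48 h Irs2, an adaptor of the IL-4 receptor, rose by 0.91 ± 0.16 and Socs5, an inhibitor of its signalling, by 0.83 ± 0.15. At 72 h Maf, a factor for Il4 transcription that macrophages also make, rose by 1.44 ± 0.37 and Socs1, an inhibitor of cytokine signalling, by 0.97 ± 0.23. The G2/M genes, 18 of 19 lower at 48 h and 11 of 18 at 72 h, moved with these values, and their part was not tested.

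With antigen at 48 h, 18, 19 and 18 of the 38 list genes rose and 4, 7 and 5 fell in low arginine, leucine and lysine. Over all genes 29.4%, 41.3% and 31.0% were called in either direction. The list medians were 0.47, 0.43 and 0.49 beside -0.12, -0.13 and -0.09 over all genes. Irf4, a factor of activated helper T cells, rose by 5.57 ± 0.14, 6.06 ± 0.13 and 5.60 ± 0.13. Ccr8 rose by 4.42 ± 0.25, 5.07 ± 0.22 and 4.97 ± 0.22, and Il12rb2, a chain of the IL-12 receptor of Th1 cells, by 4.29 ± 0.48, 4.65 ± 0.43 and 2.64 ± 0.43. At 72 h, 13 of 39 rose and 9 fell (median 0.13 beside 0.02 over all genes), where 38.2% of all genes were called in either direction. Irf4 rose by 6.20 ± 0.34, Gfi1, a repressor that supports Th2 cell growth, by 5.28 ± 0.19, and Tbx21 by 4.34 ± 0.26. Maf fell by 4.48 ± 0.37 along with the macrophage and stromal markers given above, whose part was not tested.

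Against full medium, 3 list genes were higher and 1 lower in low arginine, 4 and 2 in low leucine, and 3 and 4 in low lysine, where 4.67%, 2.72% and 8.73% of all genes were called in either direction. Ccr8 rose in all 3 media, by 1.31 ± 0.22, 1.50 ± 0.22 and 1.57 ± 0.22, and Il24, a cytokine of the IL-10 family, fell by 1.80 ± 0.33, 1.68 ± 0.33 and 1.11 ± 0.33. Irf4 also rose in all 3, by 0.73 ± 0.13, 0.95 ± 0.13 and 0.73 ± 0.13. Il10 rose by 0.85 ± 0.22 in low arginine and by 0.99 ± 0.22 in low leucine. In low lysine Socs3, a feedback inhibitor of STAT signalling, fell by 1.42 ± 0.20 and Tbx21 by 0.91 ± 0.28. Low arginine and low leucine differed in 0 of the 38 list genes by limma (0.712% of all genes called), with 5 at an unadjusted p below 0.05. The largest difference was that of Il3 (-1.84 ± 0.47, adjusted p = 0.0776). Low arginine against low lysine called 2 higher (Runx3, 1.13 ± 0.20, and Socs3, 0.80 ± 0.20) and 1 lower (Il3, -1.71 ± 0.47), where 3.22% of all genes were called. Low leucine against low lysine called Il12rb2 (1.87 ± 0.43), Tbx21 (1.38 ± 0.28) and Runx3 (0.88 ± 0.20), all higher, where 1.88% of all genes were called.

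The genes most like each member over the 23 arrays at 48 h were found by Pearson correlation of log2 levels for the 5 members with a group mean above background. The points share arrays and normalization, and the values are descriptions. Il13 was most like Vbp1 (0.94), Prpsap1 (0.94) and Sdhaf3 (0.93), whose values over the 9 arrays at 72 h were 0.72, 0.11 and 0.75. Gata3 was most like Traf6, Ccnd2 and Izumo1r (0.93 each), with 0.91, 0.90 and 0.93 at 72 h. Ccr4 was most like Parvg, Gapdh and Myc (0.97 each, and 0.80, 0.74 and 0.82 at 72 h). Il4ra was most like Oas2, Prrc2c and Jun (0.84, 0.83 and 0.81), of which Jun alone stayed high at 72 h (0.89, beside 0.22 and -0.08). Stat6 was most like Cd226 and Tmem94 (0.88 and 0.85, then 0.49 and 0.43 at 72 h) and Pmepa1 (0.85).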

How the data were processed

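Total RNA (100 ng) of sorted CD4+ T cells was hybridised to 23 MoGene-2_0-st arrays (48 h) and 9 HT_MG-430_PM arrays (72 h). The authors deposited 1 log2 value per probe set and array. RMA and Affymetrix Expression Console 1.1 are named in the submitters' processing notes. Which arrays were normalized together is not given in the sources used here. The platform annotation named 22180 genes at 48 h and 17097 at 72 h. The probe set with the highest mean stood for a gene. Each platform had its own limma fit over all of its groups (version 3.58.1, R 4.3.3), with lmFit and then eBayes, whose prior followed a trend with intensity. P-values were two-sided and adjusted by Benjamini-Hochberg over all genes of the platform, and the threshold for a call was an adjusted p under 0.05. The fit was tested on simulated data. Plots were drawn in Python 3.11.15 with matplotlib 3.10.9.

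The members, the gene lists and the comparisons were chosen with earlier results of these data known. Named besides the members were Arg1, Chil3, up to 4 called genes per comparison from a list of the IL-4 pathway and Th2 programme, and the 3 genes most like each member above background. Marker lists covered G2/M and mitosis, macrophages, mesothelial and stromal cells, mast cells and basophils, and CD4 T cell identity. Further lists covered alternatively activated macrophages, regulatory T cells, B cells, CD8 T and NK cells, dendritic cells, eosinophils and neutrophils, and type 2 innate lymphoid cells. Alternatives were array centring, quantile normalization, the mean of all probe sets, a filter on dim genes, no trend, only the groups compared, blocks by replicate number and by submitter set, and leaving out each array. Another Gata3 probe set was added after seeing the data.

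Replicate numbers come from the titles, and submitter sets were grouped here from runs of submitter numbers. Arrays with equal numbers deviated together over the 5000 brightest genes (r above 0.1 in every pair) in 2 comparisons: low arginine and low leucine, both with antigen (0.29 to 0.39), and the pretreatment at 72 h (0.16 to 0.26). The pairing there comes from the data, not from the labels. Promoters came from RefSeq (GRCm38.p6).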

Additional observations from a re-analysis of the deposited data

Results flagged for a closer look

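Stat6 stood out because its arrays with and without antigen did not overlap in low leucine and in low lysine, with differences of opposite sign. In low leucine at 48 h the antigen difference was only -0.050 ± 0.13 on the log2 scale (limma, adjusted p = 0.764). It ran from -0.11 to -0.002 over 3 submitter sets. In low lysine the difference was 0.69, higher in 3 of 3 sets. A moderated F test in limma of the difference among media did not pass (adjusted p = 0.170). Array centring turned the low leucine value to 0.19.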

How the results depend on the processing

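Of 1310 values of single members under the alternatives, 1258 kept their direction if called and their side of the threshold. A further 38 lost a call and 14 gained one. No called value changed sign against the values as deposited, while 36 uncalled values did. Signs could also differ between 2 alternatives. Stat6 and Il4ra with antigen in low leucine were called lower under quantile normalization but lay above 0 under array centring. The replicate block changed 1 of 91 calls, that of Ccr4 with antigen at 72 h (adjusted p = 0.0647 with the block), where the numbers do not pair the arrays (r of 0.15, 0.01 and -0.22), and no other. Counts of called members moved as follows. Array centring gave 3 for antigen in low arginine. Quantile normalization gave 6 for antigen in low leucine and 1 for low arginine and for low leucine against low lysine. Leaving out dim genes, Il4 among them, gave 1 for low arginine against low leucine, 1 for low leucine against low lysine, 3 and 4 for antigen in low leucine and low lysine, and 5 for antigen at 72 h. The other Gata3 probe set, chosen after seeing the data, gave 1 for antigen in low arginine and 4 in low lysine. Antigen at 72 h also gave 5 with no trend, with only the groups compared and with either block. Fitting only the groups compared gave 3 for low leucine against full medium. The submitter set as a block gave 1 for low arginine against low leucine. Leaving out each array in turn gave 3 to 5 for antigen at 72 h, 4 to 5 for antigen in low lysine, 4 for antigen in low leucine and 2 for antigen in low arginine. It gave 0 to 1 for each low medium against full medium, for low arginine and for low lysine against low leucine, and for the pretreatment at 48 h, and 0 for the other comparisons.

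Counts over all genes depended on the fit. With only the groups compared they went from 1036 to 2472 in low arginine, 603 to 1654 in low leucine and 1936 to 968 in low lysine against full medium, from 158 to 879 for low arginine against low leucine, 715 to 139 for low arginine and 416 to 50 for low leucine against low lysine, and from 1656 to 1009 for the pretreatment at 72 h. Low leucine against low lysine gave 233 with quantile normalization, 642 without dim genes and 638 with the replicate block, and the F test went from 33 to 64 and 73 under the first 2 of these. Antigen in low leucine went from 9165 to 5950 without dim genes. With 1 array left out the count was 577 to 710, 339 to 401 and 903 to 3183 for low arginine, leucine and lysine against full medium. It was 48 to 78 for low arginine against low leucine, 329 to 1021 and 84 to 1414 for these media against low lysine, 8 to 218 for the F test, 1148 to 2111 and 495 to 2225 for the pretreatment at 48 and 72 h, and 3857 to 5543 for antigen in low arginine. The highest counts for low lysine against full medium (3183) and low leucine (1414) and for the F test (218) came without low-lysine replicate 3 with antigen, and the lowest for the pretreatment at 72 h (538 and 495) without replicate 3 of either group. Signal near background limits Il4 and Il5 at 48 h, Il5 at 72 h, and Ccr4 (both times) and Il4 (72 h) in cells without antigen.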
